A study of Mus musculus with 4 samples.

Results

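The proteasome subunit genes of mouse skin were described across 4 arrays. They were taken by name: every symbol of Psma, Psmb, Psmc, Psmd, Psme, Psmf or Psmg followed by a number, without the immunosubunits Psmb8, Psmb9 and Psmb10. The rule gave 45 symbols in the RefSeq table used for naming, and 43 of them were matched to a probe, among 16862 genes in all. Psma8 and Psmg4 were not matched. The 43 genes had 59 probes, and 14 genes had 2 or more. Each gene was represented by its brightest probe among those unsaturated on all 4 arrays, or, where a gene had none, by its brightest probe.

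The proteasome is the large protease that degrades proteins tagged with ubiquitin. Its barrel-shaped 20S core holds rings of alpha subunits, which form the gate, and rings of beta subunits, some of which carry the cutting sites. The 19S regulatory particle caps the barrel: its ATPases unfold the substrate and thread it in, and its other subunits bind ubiquitin, remove it and hold the cap together. Dedicated chaperones assemble the core and the cap, and other caps, the proteasome activators, can take the place of the 19S particle. In many mammalian cells the transcription factors NFE2L1 and NFE2L2 raise subunit genes, the first when proteasome activity is lost and the second under oxidative stress.

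The study treated mouse skin with light and a photosensitiser to produce reactive oxygen species for a short time. The tail treated group received methyl aminolevulinate cream (Metvix), from which cells make the light-absorbing protoporphyrin IX, and after 2.5 h in darkness red light of 636 nm to 10 J/cm2. The tail control group had no treatment. The back treated group received the same cream on shaved back skin and red light to 2.5 J/cm2, and the back control group had no treatment. The labels do not say whether back controls were shaved, so shaving may be part of the back difference. Strain, sex and age are not given in the sources used here. Skin was taken 48 h after treatment, from 3 animals per group by design, but each group was 1 array and it is not stated whether RNA was pooled. No difference here therefore has a replicate check, and no p-value is given. The light doses of the tail and the back differed. The sample labels say skin for both sites, while the extraction protocol says epidermis for the tail.

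The arrays differed in brightness. The 75th percentile of the processed signal, the value each array was scaled to, was 909 for tail treated and 7261 for tail control, and 1204 for back treated and 1860 for back control. Between 42 and 43 of the 43 proteasome genes were well above background on each array. Saturated proteasome genes, whose spots had reached the top of the scanner's range, numbered 2 for tail treated and 15 for tail control, and 3 for back treated and 8 for back control. A level below is the scaled signal, that is, the processed signal as a multiple of the array's 75th percentile, and a difference is a log2 difference of such levels. Levels of different genes cannot be set against each other on an array. The call is a difference of at least 2-fold, and only genes past it are said to have risen or fallen. The median error of a proteasome gene's difference that comes from the spots alone was 0.20. Between probes of the same gene the median range of the difference was 0.52 in the tail (8 genes with 2 measured probes) and 0.40 in the back (10 genes). Keratinocyte identity was present: of the 6 keratinocyte markers, which include Krt5, Krt14, Krt1 and Krt10, between 4 and 5 were saturated on every array. In such bulk samples, fewer cells of a type and less RNA per cell cannot be told apart.

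Promoter sequence was read for 40 promoters of 37 proteasome genes in RefSeq (GRCm38.p6), in the 250 bases before each start. A pair of motifs was looked for on both strands: TGACNNNGC, the core of the antioxidant response element that NFE2L1 and NFE2L2 bind, and CCAAT, the box bound by NF-Y. No proteasome promoter held both, so their matches did not overlap. The antioxidant core was found in 5 proteasome promoters (12.5%), those of Psmb5, Psmb6, Psmc6, Psmd9 and Psmd12, against 10.2% of all 32851 promoters. CCAAT was found in 13 proteasome promoters (32.5%), against 33.8% of all promoters. Proteasome promoters thus held either motif about as often as all promoters, and a match is a description of letters, not of binding. Shown 5′ to 3′ on the gene's strand are the promoters of Psme4 and Psmd8, the genes that fell after treatment, of Psmd10, which had the highest back difference, and of Psmb5, which holds the antioxidant core and encodes a catalytic subunit. Capitals mark the motif in either orientation (ATTGG is CCAAT on the other strand). Psme4 lies at chr11:30771525-30771774 on the plus strand, Psmd8 at chr7:29180674-29180923 on the minus strand, Psmd10 at chrX:140956712-140956961 on the minus strand and Psmb5 at chr14:54617996-54618245 on the minus strand.
Psme4: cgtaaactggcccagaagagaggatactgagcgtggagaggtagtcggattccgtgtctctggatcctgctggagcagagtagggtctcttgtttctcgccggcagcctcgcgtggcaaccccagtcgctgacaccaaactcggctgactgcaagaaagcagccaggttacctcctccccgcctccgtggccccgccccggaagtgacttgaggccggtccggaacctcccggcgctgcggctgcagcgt
Psmd8: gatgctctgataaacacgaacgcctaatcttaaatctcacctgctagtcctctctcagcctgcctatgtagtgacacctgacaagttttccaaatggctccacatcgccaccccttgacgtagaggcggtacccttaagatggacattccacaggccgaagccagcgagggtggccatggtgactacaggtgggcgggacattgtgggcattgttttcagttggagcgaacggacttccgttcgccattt
Psmd10: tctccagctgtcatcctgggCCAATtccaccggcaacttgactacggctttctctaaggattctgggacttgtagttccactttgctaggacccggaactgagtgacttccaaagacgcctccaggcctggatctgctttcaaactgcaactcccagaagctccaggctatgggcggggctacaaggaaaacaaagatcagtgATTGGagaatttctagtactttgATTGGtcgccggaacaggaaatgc
Psmb5: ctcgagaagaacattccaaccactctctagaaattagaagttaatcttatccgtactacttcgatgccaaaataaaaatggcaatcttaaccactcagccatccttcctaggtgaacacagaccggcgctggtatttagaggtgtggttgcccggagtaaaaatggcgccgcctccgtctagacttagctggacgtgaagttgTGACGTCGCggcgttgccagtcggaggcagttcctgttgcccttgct
Neither motif was found in the windows of Psme4 and Psmd8. The Psmd10 window held CCAAT 3 times, and the core in the Psmb5 window began 47 bases before the start.

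Most proteasome genes stayed within 2-fold in both skins. In the tail, 28 of the 43 genes had a value. Of these, Psmd7 rose and Psme4 fell, which is 7.14% of 28, against 33.1% of all 13371 genes with a value (26.5% higher and 6.65% lower). In the back, 36 genes had a value. None rose, and Psmd8 and Psme4 fell, which is 5.56% of 36, against 26.5% of all 13561 genes (13.6% higher and 12.9% lower). The interquartile range of the differences was 0.82 in the tail and 0.68 in the back for proteasome genes, against 1.33 and 1.14 for all genes. At 1.5-fold, 9 proteasome genes were higher and 2 lower in the tail, against 39.1% and 14.6% of all genes (53.7% either way). In the back 2 were higher and 11 lower at 1.5-fold, against 24.7% and 24.1% of all genes (48.8% either way). The share of proteasome genes past 2-fold was thus below that of all genes in either skin. The shares of all genes include genes with low signals. Where both spots were measured at 200 or more, 1266 genes were higher and 435 lower in the tail, against 3538 and 889 before. In the back 1206 were higher and 1059 lower, against 1842 and 1753. Of the proteasome genes, 27 kept a value in the tail and 34 in the back. The part of signal strength in the lower share and narrower spread was not tested.

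**Figure D1:**
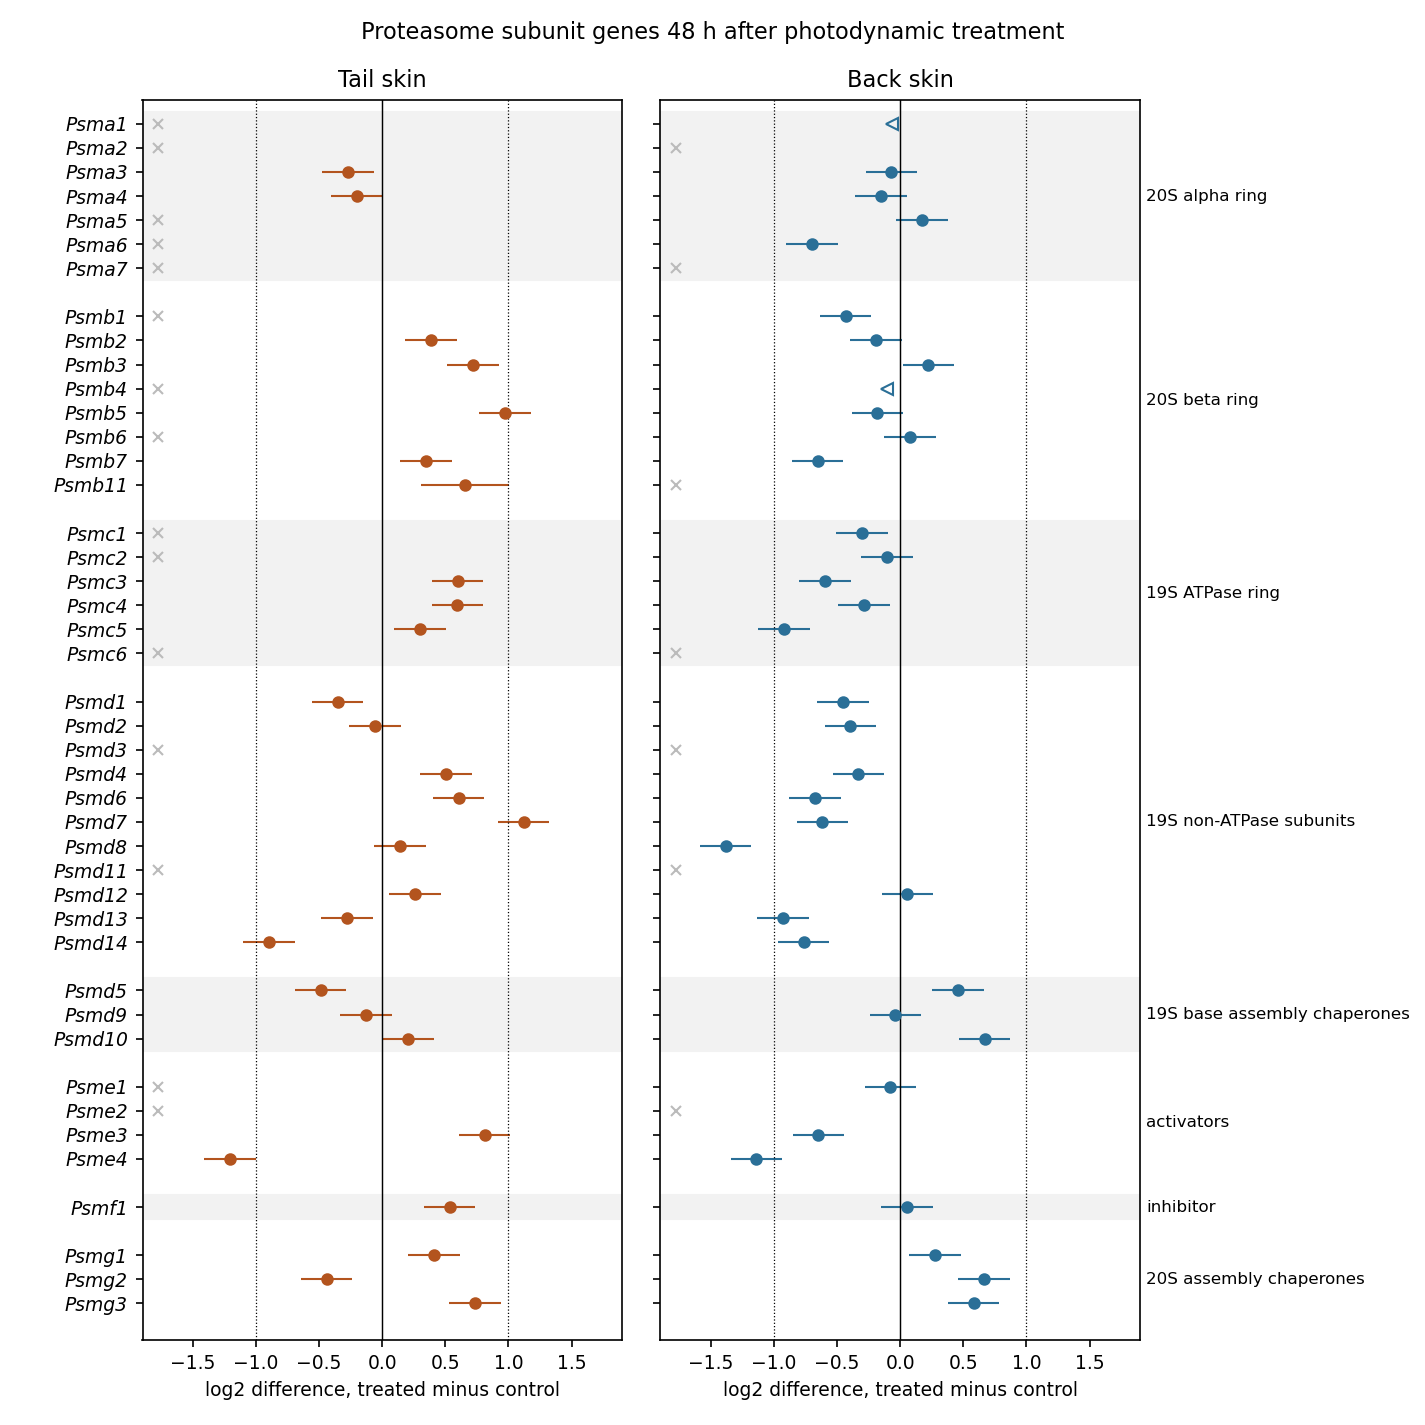
Log2 difference, treated minus control, of the 43 proteasome genes in the tail (left) and the back (right), grouped by role. Points are measured differences with the error from the spots alone, open triangles are bounds, crosses at the left edge mark genes without a value, and dotted lines mark 2-fold. Psme4 lies below the lower line in both skins.

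**Figure D2:**
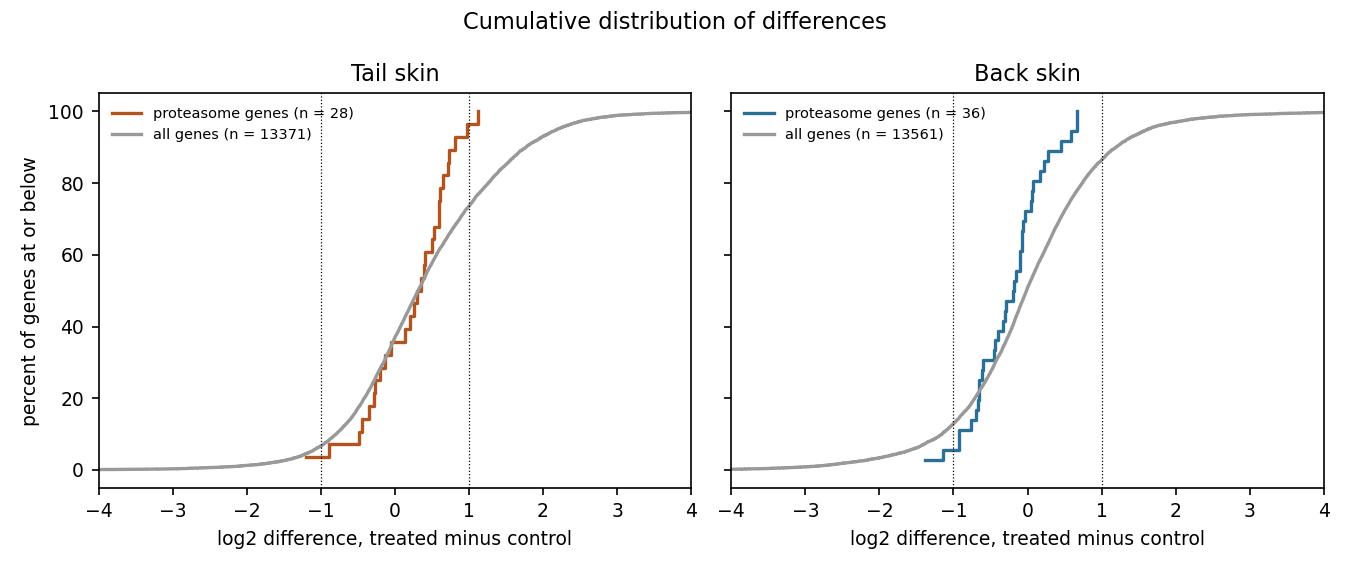
Cumulative percent of genes at or below each log2 difference, treated minus control, for proteasome genes (coloured) and all genes (grey), in the tail (left) and the back (right). Dotted lines mark 2-fold, and the steeper coloured curves show the narrower spread of the proteasome genes, between -1.21 and 1.12 in the tail.

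In the tail 15 genes had no value, 13 because they were saturated on the tail control array and 2 on both arrays. On the tail control array the processed signals of saturated genes lay between 62019 and 69383, the top of the scanner's range. In the back 7 genes had no value: 6 were saturated on the back control array, 3 of them on both arrays, and Psmb11 was dim on both. The tail counts therefore leave out many of the brightest proteasome genes.

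Of the 7 alpha ring genes on the array, which encode the gate of the core, 2 had a value in the tail and 5 in the back. None was called in either skin. Psma3 had a level of 5.96 in treated tail, against 7.20 in control tail, and of 7.18 in treated back, against 7.54 in control back. Its differences were -0.27 in the tail and -0.07 in the back. Psma4 had levels of 3.61 and 4.15 on the tail treated and tail control arrays and of 3.05 and 3.39 on the back treated and back control arrays, differences of -0.20 and -0.15. In size, all 4 differences were under the median range between probes of a gene. Psma6 had the lowest back difference of the ring, -0.70, from levels of 14.1 on the back treated array and 22.9 on the back control array. Psma5 differed by 0.17 in the back, and Psma1, saturated on the back control array, by -0.06 or lower. Psma2 had no value in either skin, and Psma7 was saturated on all 4 arrays.

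The 8 beta ring genes on the array include those of the cutting sites. All 5 with a value in the tail were above 0 (median 0.65), but only 1 of 6 was above 0 with cyclic loess and 0 of 7 with spike-in scaling. The median of 0.65 was the value of Psmb11 itself. Its signal on the tail treated array was close to the lowest one well above background there. The error of its tail difference from the spots alone was 0.35. The other tail values lay between 0.35 (Psmb7) and 0.97 (Psmb5). In the back 5 of 7 were below 0 (median -0.18), against 3 of 6 with quantile normalization. None passed 2-fold. Psmb5, the chymotrypsin-like catalytic subunit, had levels of 16.3 on the tail treated array and 8.30 on the tail control array. Its levels were 9.88 on the back treated array and 11.2 on the back control array. The differences were 0.97 in the tail, which was -0.17 with cyclic loess and -1.08 with spike-in scaling, and -0.18 in the back. Psmb5 thus was 2-fold higher in the tail under none of the 6 scalings, and was past 2-fold lower with spike-in scaling alone.

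Psmb7, the trypsin-like catalytic subunit, had levels of 7.80 in treated and 6.13 in control tail, and of 5.83 in treated and 9.18 in control back. The differences were 0.35 and -0.65, and the back one lay between -1.11 and -0.43 over all alternatives. Psmb6, the caspase-like catalytic subunit, was saturated on the tail control array, so it had no tail value. Its level on the tail treated array was 24.2. In the back it had levels of 18.1 in treated and 17.1 in control skin, a difference of 0.08. With spike-in scaling it was -0.38, and all 7 beta ring genes with a value were then below 0 in the back. Among the structural beta genes, Psmb3 differed by 0.72 in the tail and 0.22 in the back, Psmb2 by 0.39 and -0.19, and Psmb1 by -0.43 in the back. Psmb4 was bounded at -0.10 or lower in the back. Psmb11, known as the core subunit of the thymus cortex, was well above background on the tail arrays alone, with levels of 0.0123 on the tail treated array and 0.00783 on the tail control array.

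The 6 ATPase genes encode the ring that unfolds substrates. In the tail 3 had a value and all 3 were above 0 (median 0.60), whereas 0 of 4 were with normexp, 0 of 5 with cyclic loess and 0 of 6 with spike-in scaling. In the back all 5 with a value were below 0 (median -0.30), and 4 of 5 with quantile normalization. None passed 2-fold. Psmc5 had levels of 6.68 in treated and 5.43 in control tail, and of 2.73 in treated and 5.17 in control back. Its differences were 0.30 in the tail and -0.92 in the back, the lowest of the ring. A second probe of Psmc5, saturated on the back control array, gave -0.17 or lower. Psmc3 differed by 0.60 in the tail and -0.60 in the back, and Psmc4 by 0.60 and -0.29. Psmc1 and Psmc2 had back values alone, -0.30 and -0.10, and Psmc6 had no value in either skin. In each ATPase gene with both values, the tail difference was above 0 and the back difference below 0 under the main scaling, and the tail sign turned with cyclic loess.

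The 11 non-ATPase subunit genes of the 19S particle had 9 values in each skin. In the back 8 of 9 were below 0 (median -0.62), in 8 of 9 or more under each of the 6 scalings. In the tail 5 were above 0 and 4 below (median 0.14), with 7 of 9 below 0 under cyclic loess (median -0.49), 7 of 9 with normexp (median -0.49), 5 of 9 with quantile normalization and 9 of 9 with spike-in scaling (median -1.91). Psmd8 encodes a lid subunit (Rpn12 in yeast). It had levels of 9.20 in treated and 8.35 in control tail, and of 6.31 in treated and 16.5 in control back. The back control array stood above the other 3. On the tail control array its processed signal was 60603, where saturated proteasome genes began at 62019. A much higher level could thus not be read there. Psmd8 fell 2.61-fold in the back (difference -1.38), was past 2-fold under all 6 scalings there, between -1.84 and -1.03, and differed by 0.14 in the tail.

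Psmd7 encodes the lid subunit that pairs with the deubiquitinase Psmd14 (Rpn8 in yeast). Its levels were 15.9 in treated and 7.31 in control tail, and 9.88 in treated and 15.2 in control back. It rose 2.17-fold in the tail (difference 1.12), where cyclic loess gave 0.01 and spike-in scaling -0.93, and a second probe gave 0.31. In the back it differed by -0.62, and by -0.04 with the second probe. The tail call therefore rests on 1 probe and on the scaling.

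Psmd14, the subunit that cuts ubiquitin from substrates, had levels of 4.34 in treated and 8.09 in control tail, and of 6.19 in treated and 10.5 in control back. Both differences were below 0, at -0.90 in the tail and -0.77 in the back. In the tail it was past 2-fold with normexp (-1.52), quantile normalization (-1.20), cyclic loess (-1.75) and spike-in scaling (-2.95). A second Psmd14 probe gave -0.41 in the back. In the tail that probe had no value, with levels of 9.46 in treated and 9.04 in control tail, the latter saturated. Psmd13, a lid subunit, had levels of 1.34 in treated and 1.62 in control tail, and of 0.914 in treated and 1.74 in control back. Its differences were -0.28 and -0.93. Both genes were below 0 in both skins under every scaling run.

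Psmd6, another lid subunit, had levels of 11.8 in treated and 7.77 in control tail, and of 11.6 in treated and 18.4 in control back, giving 0.61 and -0.67. Psmd4, the ubiquitin receptor of the particle, differed by 0.51 in the tail and -0.33 in the back. The scaffold subunits Psmd1 and Psmd2 differed by -0.35 and -0.06 in the tail and by -0.45 and -0.39 in the back. Psmd12 differed by 0.26 in the tail and 0.06 in the back, while a second probe gave -0.50 and -0.71 and its remaining probe, with a back value alone, gave -0.52. Psmd3 was saturated on all 4 arrays and Psmd11 had no value.

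Of the 3 chaperones that assemble the 19S base, 2 were above 0 in the back. Psmd10, also called gankyrin, had levels of 2.17 in treated and 1.88 in control tail, and of 2.38 in treated and 1.49 in control back. Psmd5 had levels of 2.27 in treated and 3.18 in control tail, and of 1.96 in treated and 1.42 in control back. In the back the differences were 0.67 for Psmd10 and 0.46 for Psmd5, in the tail 0.21 and -0.49. Psmd9 differed by -0.13 in the tail and -0.04 in the back, while a second probe gave 0.37 and 0.34. None of the 3 passed 2-fold, and the back median of 0.46 was 0.00 with spike-in scaling.

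**Figure D3:**
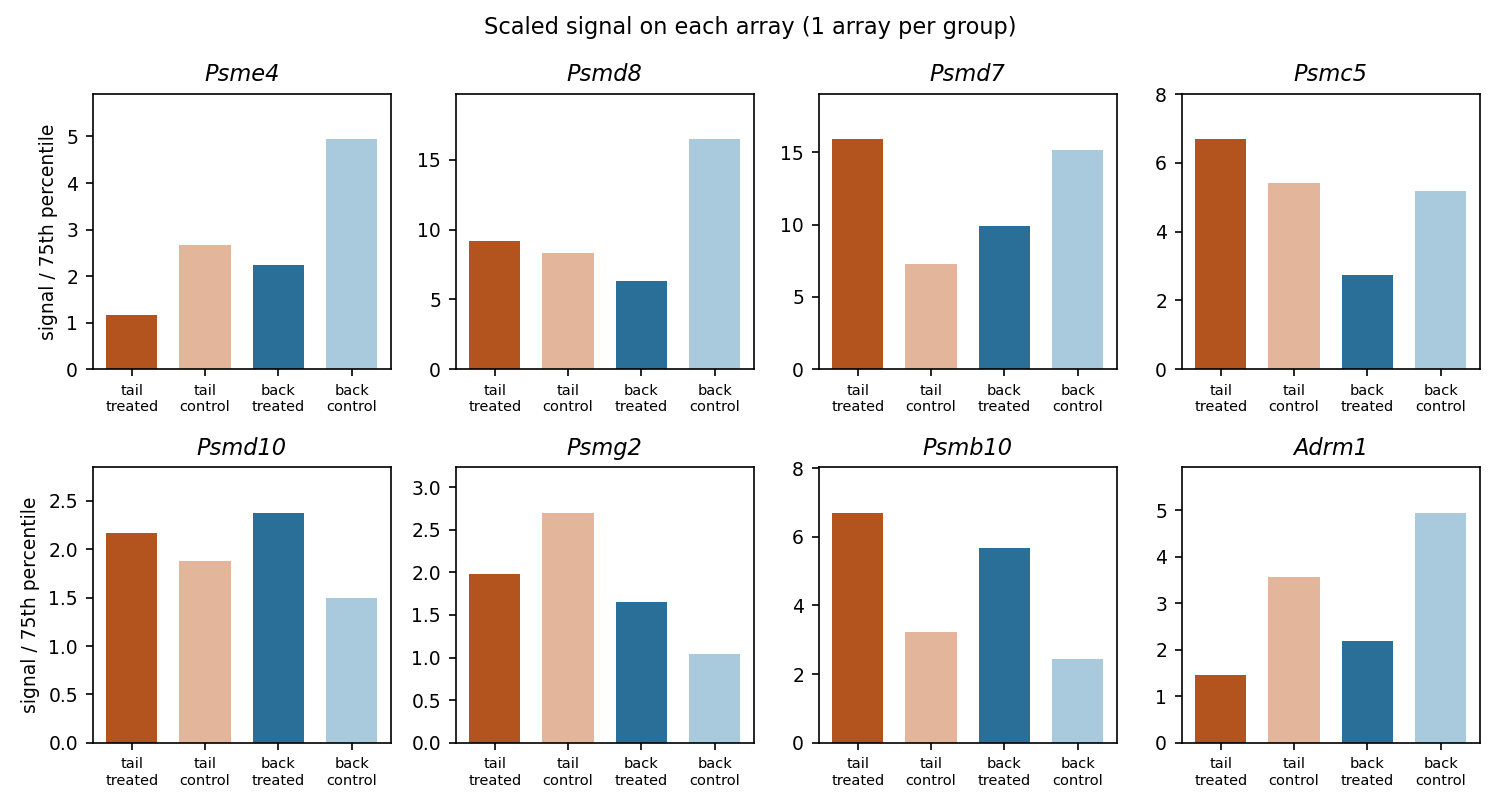
Scaled signal (multiples of the array's 75th percentile, linear axis from 0, its own scale per gene) of 8 genes on the tail treated, tail control, back treated and back control arrays, 1 bar per array and without error since each group was 1 array. Psme4 and Adrm1 are lower on each treated array than on its control array, and Psmb10 is higher.

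Psme4 was the proteasome gene that fell in both skins. It encodes PA200, a nuclear activator that caps the core in the place of the 19S particle and is known for the degradation of acetylated histones. Its levels were 1.16 in treated and 2.68 in control tail, and 2.24 in treated and 4.94 in control back. Each treated array was lower than its control, and the back control array was the highest of the 4. It fell 2.31-fold in the tail (-1.21) and 2.20-fold in the back (-1.14). Psme4 is 1 of 27 proteasome genes measured in both skins, and 141 of 11856 genes fell in both. No proteasome gene rose in both skins, against 412 genes in all. Over the 6 scalings Psme4 was past 2-fold in the tail in each, between -3.26 and -1.21, and in the back in all but quantile normalization, which gave -0.98. A second Psme4 probe gave -0.36 in the tail and -1.10 in the back, and the remaining probe, saturated on the tail control array, gave -0.60 in the back. All measured Psme4 probes were thus below 0, and the tail call rests on 1 of them.

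Psme3, the nuclear activator PA28 gamma, had levels of 13.8 in treated and 7.84 in control tail, and of 7.58 in treated and 11.9 in control back. The differences were 0.81 in the tail, where cyclic loess gave -0.26, normexp -0.04 and spike-in scaling -1.24, and -0.65 in the back. Psme1, which together with Psme2 forms the interferon-induced activator PA28, had no tail value and differed by -0.08 in the back, with levels of 14.2 on the back treated array and 15.0 on the back control array. Psme2 was saturated on both control arrays, and its dimmer probe gave 0.01 in the back. Psmf1, the inhibitor PI31, differed by 0.53 in the tail with each of its probes, and by 0.05 and 0.47 in the back.

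All 3 measured chaperones of the 20S core were above 0 in the back, and 2 of 3 with spike-in scaling, but none was called. Psmg2 had levels of 1.99 in treated and 2.70 in control tail, and of 1.65 in treated and 1.04 in control back. Its differences were -0.44 in the tail and 0.67 in the back, and a second probe gave -0.98 and 0.25. Psmg3 had levels of 2.68 in treated and 1.61 in control tail, and of 1.25 in treated and 0.834 in control back, giving 0.73 and 0.58. Psmg1, the partner of Psmg2, differed by 0.41 in the tail and 0.28 in the back. The assembly chaperones of core and base thus held 5 of the 10 back differences above 0.

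The direction of the proteasome genes as a group was steadier in the back than in the tail. In the back the median difference was -0.19, against -0.01 for all genes, and 26 of 36 genes were below 0. The back median stayed below 0 under all 6 scalings, between -0.61 and -0.08. Of 35 genes valued under each, 21 were below 0 in all 6 and 4 above. The 4 were Psmd5, Psmd10, Psmg2 and Psmg3, which are all assembly chaperones. Without spike-in scaling, 7 of 35 were above 0 under the other 5 scalings and 21 were below 0. Psmg1 and the beta ring genes Psmb3 and Psmb6 were then also among those above 0.

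In the tail the median was 0.32, with a sign that turned under 4 of the 5 other scalings, and that of all genes was 0.31. Relative to this shift, 14 proteasome genes lay above and 14 below. The tail median was -0.22 with normexp, -0.13 with quantile normalization, -0.28 with cyclic loess and -1.52 with spike-in scaling, beside 0.59, 0.03, -0.08 and -1.65 for all genes. With these 6 scalings no gene was above 0 in all, 10 of 28 were below 0 in all, among them Psme4, Psmd14, Psmd5 and Psmg2, and 18 had mixed signs. Spike-in scaling lowers the tail difference of every gene by 1 constant (-2.05), and the back difference by another (-0.45). Without it, 5 of 28 were above 0 under the other 5 scalings (Psmb3, Psmd7, Psmf1, Psmg1 and Psmg3), 10 were below 0 and 13 had mixed signs.

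**Figure D4:**
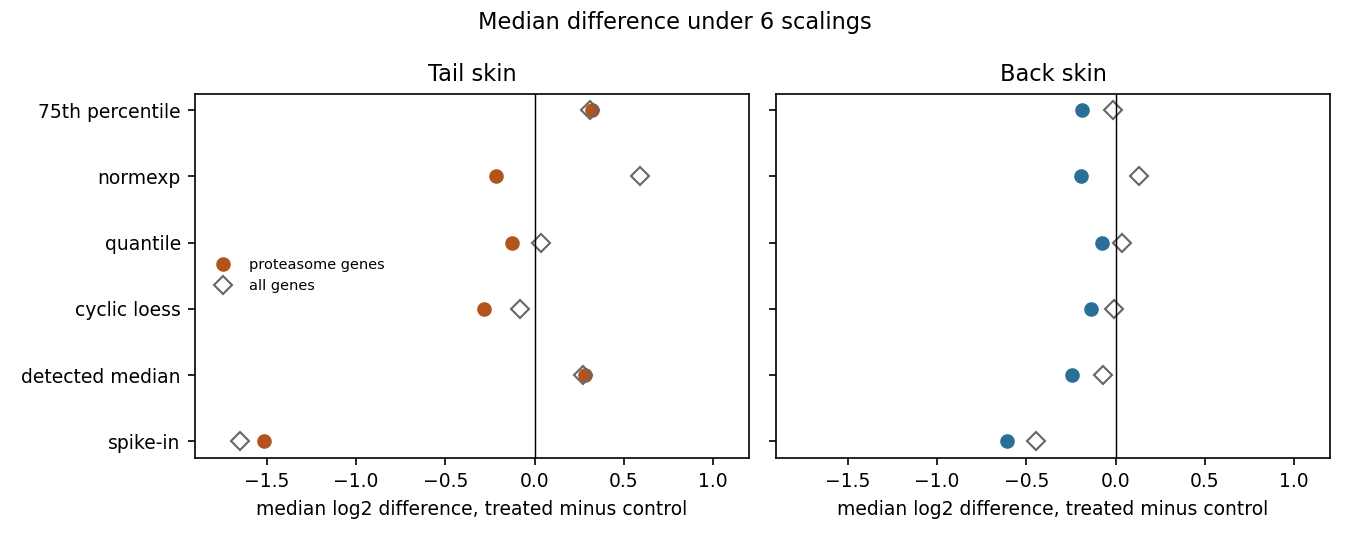
Median log2 difference, treated minus control, of proteasome genes (filled) and of all genes (open) under 6 ways of scaling the arrays, in the tail (left) and the back (right). The filled points of the back all lie below 0, between -0.61 and -0.08, while those of the tail lie on both sides of it.

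The brightness of the tail control array moved with these values. The 10 measured proteasome genes with a processed signal of at least 50000 on that array had a median tail difference of 0.55, and the 18 under it 0.28, beside 0.31 and 0.32 for all genes so divided. Psmd7 and Psmb5 were among the bright ones, and Psme4 was not. The part of brightness in the tail differences was not tested.

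**Figure D5:**
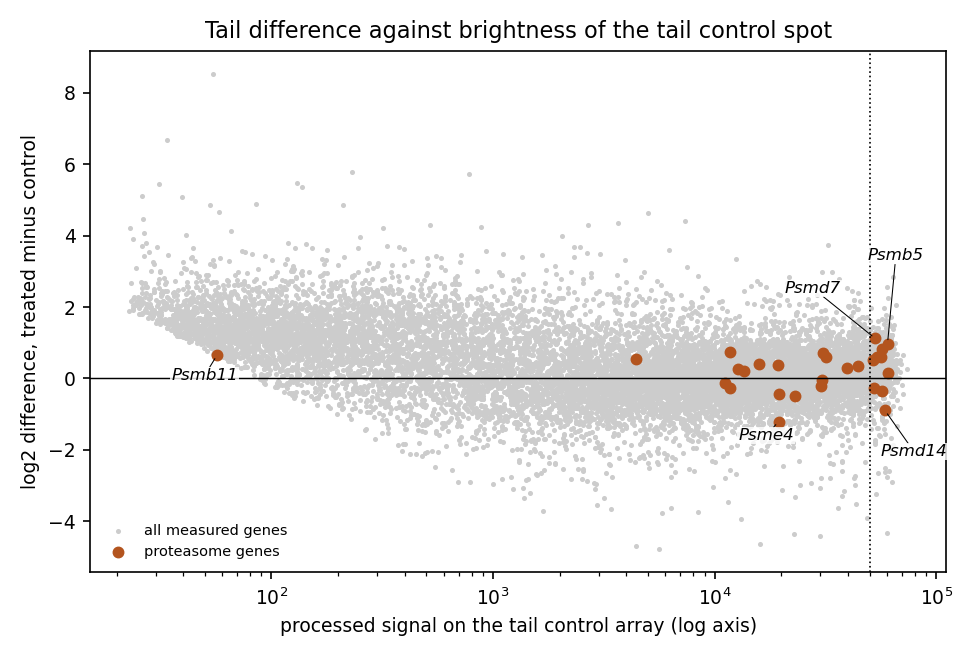
Log2 difference in the tail, treated minus control, against the processed signal on the tail control array (log axis), for all measured genes (grey) and proteasome genes (orange). The dotted line marks a signal of 50000, above which lie 10 proteasome genes, Psmd7 and Psmb5 among them.

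Untreated back and tail skin were compared to see how far these genes differed without treatment. Of 27 genes with a value, Psmd6, Psmd7 and Psmd12 were higher in back control and Psmd5, Psmd9 and Psmg2 were lower, 22.2% of them against 44.3% of all 13290 genes (27.2% higher and 17.0% lower). At 1.5-fold 7 were higher and 4 lower, against 38.9% and 26.9% of all genes (65.8% either way). The median was 0.10, against 0.20 for all genes. Psmd6 had levels of 18.4 in back control and 7.77 in tail control, a difference of 1.25. Psmd12 had levels of 3.70 in back control and 1.76 in tail control, a difference of 1.07, while its second probe gave 0.07. Psmd7 differed by 1.05, while its second probe gave -0.70. Each of these 3 was below 2-fold under at least 1 alternative, and the lowest values were 0.21 for Psmd6, 0.03 for Psmd7 and 0.20 for Psmd12. Proteasome genes with a tail control signal of at least 50000, Psmd6 and Psmd7 among them, had a median of 0.43 (9 of 10 above 0). Those under it had a median of -0.07 (7 of 17 above 0), beside 0.25 and 0.24 for all genes so divided. The part of brightness here was not tested.

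The lower calls were steadier. Psmd9, a base chaperone, had levels of 0.610 in back control and 1.53 in tail control, and its difference of -1.32 was -1.80 with a second probe. Psmg2 had levels of 1.04 in back control and 2.70 in tail control, and its difference of -1.37 was -1.61 with a second probe. Psmd5 had levels of 1.42 in back control and 3.18 in tail control, a difference of -1.16. All 3 stayed past 2-fold under every alternative, with the weakest at -1.14 for Psmd5, -1.23 for Psmd9 and -1.35 for Psmg2. The 6 measured assembly chaperones of core and base were all lower in back control than in tail control under the main scaling, and Psmg1, at -0.05, was 0.03 with normexp. This comparison shares its back control array with the back differences and its tail control array with the tail differences. It is therefore not independent of either.

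For the 27 genes measured on all 4 arrays, the back response was compared with the tail response, at unequal light doses. The difference of responses, back minus tail, was past 2-fold upward in 1 gene and downward in 8, 33.3% of 27 against 43.6% of all 11856 genes (15.3% higher and 28.3% lower). At 1.5-fold 2 were higher and 11 lower, against 25.1% and 38.8% of all genes (63.9% either way). In 11 genes the tail difference was above 0 and the back difference below 0, in 2 the reverse held, and 14 had 1 sign in both skins. The 8 were Psmd7 (-1.74), Psmd8 (-1.52), Psme3 (-1.46), Psmd6 (-1.28), Psmc5 (-1.22), Psmc3 (-1.19), Psmb5 (-1.15) and Psmb7 (-1.0), and the 1 was Psmg2 (1.11). Of these 9, Psmg2 alone stayed past 2-fold under all 6 scalings, between 1.09 and 2.71. Spike-in scaling adds 1 constant, 1.598, to the difference of responses of every gene, so any value between minus that constant and 0 turns sign under it, as all of the 8 but Psmd7 did. Psmd7, Psmd8, Psme3, Psmd6 and Psmb5 had processed signals of at least 50000 on the tail control array, where saturated proteasome genes began at 62019. Psmc5, Psmc3, Psmb7 and Psmg2 were under 50000. These differences, and the part of brightness in them, were not tested.

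Other genes of the pathway were taken from lists by role. The 3 immunosubunits, which replace the standard catalytic subunits under interferon, were above 0 in both skins, but all 3 were below 0 in the tail with spike-in scaling. Psmb10 had levels of 6.69 in treated and 3.22 in control tail, and of 5.68 in treated and 2.44 in control back. It rose 2.08-fold in the tail and 2.33-fold in the back, with 0.48 in the tail under cyclic loess and 0.77 in the back under spike-in scaling. Psmb8 and Psmb9 differed by 0.35 and 0.57 in the tail and by 0.55 and 0.13 in the back. Between the untreated skins, Psmb8 had levels of 2.24 in back control and 0.275 in tail control, a difference of 3.03, and Psmb9 of 1.65 and 0.233, a difference of 2.82. Both differences were past 2-fold under all 6 scalings, with the lowest at 2.16 and 1.96.

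Of 13 accessory and assembly genes on the array, 0 rose and 2 of 9 fell in the tail, beside 26.5% and 6.65% of all genes, and 0 rose and 3 of 11 fell in the back, beside 13.6% and 12.9%. In the tail 4 were lower with quantile normalization, 4 with cyclic loess and 1 with normexp. Adrm1, the ubiquitin receptor Rpn13 of the 19S particle, fell in both skins, like Psme4. Its levels were 1.46 in treated and 3.57 in control tail, and 2.18 in treated and 4.94 in control back. Its differences, -1.29 in the tail and -1.18 in the back, were past 2-fold under all 6 scalings. Ipo9, an importin that brings proteasomes into the nucleus, fell in the tail (-1.15, but 0.85 with normexp), and its partner Akirin2 (-1.20) and Zfand2a, a stress-induced proteasome adaptor (-1.21), fell in the back. With quantile normalization these back differences were -0.72 for Akirin2 and -0.70 for Zfand2a.

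Of the 9 regulators, Nfe2l1 was saturated on both control arrays and had no value. Nfe2l2 had levels of 7.70 in treated and 6.04 in control tail, and of 19.2 in treated and 14.1 in control back, which gave 0.35 and 0.44. Keap1, which holds NFE2L2 back, rose in the back (1.70) and differed by 0.93 in the tail, where spike-in scaling gave -1.12. Mafk, a small Maf partner of both factors, fell in the tail (-1.01) and the back (-1.31). In the tail 0 of 7 regulators rose and 1 fell, and in the back 1 of 8 rose and 1 fell, beside 33.1% of all genes called in the tail and 26.5% in the back.

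Of 13 valued genes for ubiquitin and its activation and conjugation, 2 rose and 1 fell in the tail, beside 26.5% and 6.65% of all genes, and 1 rose and 6 fell in the back, beside 13.6% and 12.9% of all genes. The tail split was 0 higher and 2 lower with normexp, 1 and 3 with quantile normalization, 1 and 5 with cyclic loess and 0 and 11 with spike-in scaling. The back ones that fell were the conjugating enzymes Ube2g2 (-1.51), Ube2r2 (-1.49), Ube2d3 (-1.47), Ube2k (-1.09) and Ube2n (-1.07) and the activating enzyme Uba1 (-1.06), with 4 lower calls under cyclic loess and 2 with quantile normalization. Ube2k, Ube2n and Uba1 were named after their values were seen, to complete the count. Ube2c, the conjugating enzyme of the anaphase-promoting complex, rose in the tail (1.16) and the back (1.72), and was -0.89 in the tail with spike-in scaling. Of 10 shuttle and segregase genes with a value in each skin, Ufd1 rose in the tail (1.15, and -0.02 with cyclic loess) and Ubqln1 fell in the back (-1.55). Of 4 autophagy receptors with a value in each skin, 1 rose and 1 fell in each, beside the shares of all genes given above. Optn rose in the tail (1.19) and the back (1.84), with -0.86 in the tail under spike-in scaling. Tax1bp1 fell in the tail (-1.20) and Calcoco1 in the back (-1.51), where 3 of 4 were below 0 (median -0.53).

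Markers of other cell types differed in the same comparisons. Of 47 markers of 10 other cell types, 25 of 40 with a value rose and 1 fell in the tail (median 1.29), beside 26.5% and 6.65% of all genes. In the back 16 of 41 rose and 8 fell (median 0.31), beside 13.6% and 12.9% of all genes. These counts are from the main scaling, and spike-in scaling lowers the tail difference of every gene by 1 constant (-2.05). The summed level of the 6 neutrophil markers was 144 in treated and 8.60 in control tail, and 109 in treated and 42.7 in control back. On each treated array 2 of them were saturated. By gene, 4 of 5 with a value rose in the tail and 3 of 4 in the back. In each skin 2 of these values were measured and the rest were bounds. Cxcr2 was below 0 in both skins (-0.42 in the tail and -0.79 in the back). The 4 Langerhans cell markers summed to 5.92 in treated and 5.71 in control tail, and to 10.7 in treated and 32.6 in control back. By gene, 3 of the 4 were below 0 in the tail (median -0.70), where Cd207 fell (-2.54), and all 4 fell in the back (median -1.59). The 4 T cell markers summed to 1.66 in treated and 0.679 in control tail, and to 0.288 in treated and 3.31 in control back. No defining marker had a signal of 0, though Tek of endothelium was well above background on no array and Kdr on the tail control array alone. Among the 6 keratinocyte markers Trp63 alone had a value. It differed by -0.76 in the tail, where normexp gave 0.80, and rose in the back (1.12). The part of these cells in the proteasome differences was not tested.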

How the data were processed

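Groups were taken from the sample titles, and 1 one-colour Agilent array per group was read on 1 slide, so position on the slide cannot be told apart from group. RNA input was 200 ng, per the labels' protocols. Each processed signal in the deposited scanner files is an intensity from which Feature Extraction had taken the background, in version 10.5.1.1 per the file headers and 10.7 per the submitters' processing notes. The authors' deposited table is on a log2 scale, and how it was made is not given in the sources used here. Set against the scanner files, it was centred on each probe's median over the 4 arrays, with column medians of 0.10 (tail treated), -0.28 (tail control), 0.08 (back treated) and -0.03 (back control).

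Each array's log2 signals were shifted by its 75th percentile over the probes that are not controls. Outlier spots were left out and repeated spots averaged. Accessions in a RefSeq table (GRCm38.p6) named 24375 of 41171 probes, and the headers name build mm8, so no probe coordinates are given. A difference was measured when both spots were unsaturated and well above background. With 1 of them dim or saturated it is a bound, or has no value where the levels point the other way, and medians take bounds at their bound. A dim spot stood at the array's lowest signal well above background, or at its own if higher. The number of arrays limits the precision. The way calls are made was checked on simulated arrays with set differences.

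Members and lists were chosen with earlier results of these data known. Levels on all arrays were given for genes past 2-fold, the 3 highest and 3 lowest differences per comparison, the 5 largest differences of responses each way and the catalytic subunits, and related lists name up to 4 genes by size plus Nfe2l1 and Nfe2l2. Alternatives were normexp (offset 50, on median spot signals), quantile normalization, cyclic loess, the median of detected probes, spike-in scaling, no filter, a signal of at least 200, measured genes alone, the brightest probe, the mean of probes, outlier spots kept, the authors' table and 1.5-fold, and, chosen after values were seen, tail control signals under 50000. Python 3.11.15, pandas 2.3.3, R 4.3.3 and limma 3.58.1 were used.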

Additional observations from a re-analysis of the deposited data

Results flagged for a closer look

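Proteasome genes measured on all 4 arrays are given here where the treated array differed from its control in opposite directions in the skins and the back difference minus the tail difference was 2-fold or more. They were 9 of 27 genes (33.3%), and the 2-fold rule alone gave the same 9. By the 2-fold rule alone, 43.6% of all 11856 genes were past it in this difference (15.3% higher and 28.3% lower). The share of all genes that also ran in opposite directions was not computed. With 1 array per group these differences of responses were not tested, and the light doses differed. In 8 genes the back difference was below 0 and the tail difference above 0. The difference of responses was -1.74 for Psmd7, -1.52 for Psmd8, -1.46 for Psme3, -1.28 for Psmd6, -1.22 for Psmc5, -1.19 for Psmc3, -1.15 for Psmb5 and -1.0 for Psmb7. Spike-in scaling adds 1.598 to this value in every gene, which puts all of these but Psmd7 above 0. Of the 8, Psmd7, Psmd8, Psme3, Psmd6 and Psmb5 had tail control signals of at least 50000, and the part of brightness was not tested. Psmg2 ran the other way, at 1.11, with a back difference of 0.67 and a tail difference of -0.44, and its difference of responses stayed past 2-fold under all 6 scalings.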

How the results depend on the processing

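No paired analysis was possible because each group was 1 array. Of the 93 alternative values of counts and medians, 62 stayed close to the main one and 31 moved. Of 403 alternative values of single genes, 20 turned sign, 5 of them from a main value past 2-fold and 15 from one short of it, and 11 of the 20 came with spike-in scaling, which shifts every gene of a comparison by 1 constant. In the tail the count of proteasome genes past 2-fold, 2 in the main setting, was 4 with cyclic loess (all lower), 30 with spike-in scaling, 14 with no filter, 1 with the brightest probe whether saturated or not, 0 with the mean of probes, 1 with tail control signals under 50000, and 11 at 1.5-fold. In the back the count, 2 in the main setting, was 1 with quantile normalization, 11 with spike-in scaling, 1 with the brightest probe, 1 with the mean of probes and 13 at 1.5-fold. Between untreated skins the count, 6 in the main setting, was 3 with quantile normalization, 17 with no filter and 11 at 1.5-fold. For the difference of responses, 9 in the main setting, it was 3 with normexp, 2 with quantile normalization, 4 with cyclic loess, 16 with spike-in scaling, 23 with no filter and 4 with tail control signals under 50000. The tail median, 0.32 in the main setting, was -0.22 with normexp, -0.13 with quantile normalization, -0.28 with cyclic loess, -1.52 with spike-in scaling and 0.61 with no filter. The back median, -0.19, was -0.61 with spike-in scaling. The median between untreated skins, 0.10, was -0.18 with quantile normalization, -0.39 with cyclic loess, -0.48 with spike-in scaling and 0.58 with no filter. Of the values past 2-fold, spike-in scaling turned the tail difference of Psmd7 (-0.93) and the difference of responses of Psmc5 (0.38), Psmd6 (0.32), Psmd8 (0.073) and Psme3 (0.14). No filter takes saturated spots at their value, and the brightest probe and the limit of 50000 change which probes or genes are counted. For the other settings the cause was not tested. Of all genes called in the tail, 79.9% were higher in the main setting, 90.8% with normexp, 58.5% with quantile normalization, 51.8% with cyclic loess and 1.29% with spike-in scaling, and in the back 51.2% and 20.8% with spike-in scaling. Between untreated skins 61.5% were higher, 48.3% with quantile normalization, 47.4% with cyclic loess and 21.2% with spike-in scaling. Saturation on the tail control array, not dimness, limits the tail values of 15 genes.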
